A study of Mus musculus with 11 samples.

Results

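Chromatin accessibility was compared between the extremes of a sort of naive CD4 T cells: population D, high for a reporter of T cell receptor signalling and negative for the surface protein Ly6C, against population A, low for the reporter and positive for Ly6C. All 45508 deposited peaks entered the comparison, with 3 libraries of D and 2 of A, which are 5 of the 11 ATAC-seq libraries of the series. ATAC-seq inserts sequencing tags into accessible DNA with the transposase Tn5, and the reads at a site measure how open it is. All mice were untreated, on a C57/BL6 background, and carried the Tg(Nr4a1-EGFP)GY139Gsat transgene, which makes green fluorescent protein under control of Nr4a1 (Nur77), together with the Foxp3tm1Flv mutation, a red reporter in the Foxp3 gene. Spleen and lymph node cells were gated as CD4+, Foxp3 reporter negative and CD44 low. From these, population A was Nur77-GFPlo Ly6C+ and population D was Nur77-GFPhi Ly6Cneg. Each library held 10000 cells, tagmented for 1 h at 37 °C. The replicate number is the mouse: D came from mice 1, 2 and 3, and A from mice 1 and 3. Because both markers change between the populations, an effect of the reporter level and one of Ly6C cannot be told apart here.

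Naive T cells receive weak, continuous signals through the T cell receptor from self peptides on MHC molecules, known as tonic signals. Nr4a1 is switched on within hours of such signals, so its reporter ranks cells by what they have recently received, whereas Ly6C is known to be lower on naive CD4 T cells that receive stronger tonic signals. Open chromatin away from genes often marks enhancers, and open promoters mark genes that can be transcribed, although neither shows that a gene is expressed.

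Sequence could be shown for promoters, and 6 are printed because their accessibility changed and because they hold one of a pair of motifs treated with the promoter results below. They were chosen after their values were seen. Each is the 250 bases before a RefSeq transcription start site (build GRCm38.p6), 5′ to 3′ on the strand of the gene. In the first 4, from promoters that were higher in D, capitals mark matches to TGANTCA, the site of AP-1 factors, where N is any base. They lie at chr4:150927749-150927998 (+) for Tnfrsf9, chr4:145315165-145315414 (-) for Tnfrsf8, chr2:84733954-84734203 (+) for Ypel4 and chr3:55461478-55461727 (+) for Dclk1. In the last 2, from promoters that were lower in D, capitals mark CAGCTG, an E-box bound by basic helix-loop-helix factors. They lie at chr15:75048838-75049087 (-) for Ly6c1 and chr4:43483710-43483959 (-) for Sit1. Other motifs in these stretches are not marked. The E-box letters CAGCTG also occur, unmarked, in the Tnfrsf9 and Ypel4 stretches, so the motifs do not split these examples by direction.
Tnfrsf9: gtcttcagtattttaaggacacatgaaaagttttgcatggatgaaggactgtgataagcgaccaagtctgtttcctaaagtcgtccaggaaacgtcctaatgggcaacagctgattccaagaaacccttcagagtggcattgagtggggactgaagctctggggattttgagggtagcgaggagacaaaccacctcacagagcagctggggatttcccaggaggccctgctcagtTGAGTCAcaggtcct
Tnfrsf8: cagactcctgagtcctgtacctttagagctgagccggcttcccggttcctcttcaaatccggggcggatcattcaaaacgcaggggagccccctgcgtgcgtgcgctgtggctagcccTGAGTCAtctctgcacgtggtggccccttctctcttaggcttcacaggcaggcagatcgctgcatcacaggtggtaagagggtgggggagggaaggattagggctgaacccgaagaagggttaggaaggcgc
Ypel4: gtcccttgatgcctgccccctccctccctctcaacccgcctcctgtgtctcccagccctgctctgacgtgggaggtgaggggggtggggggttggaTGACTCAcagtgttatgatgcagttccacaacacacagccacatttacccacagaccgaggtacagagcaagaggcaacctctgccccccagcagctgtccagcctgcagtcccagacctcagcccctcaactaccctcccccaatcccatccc
Dclk1: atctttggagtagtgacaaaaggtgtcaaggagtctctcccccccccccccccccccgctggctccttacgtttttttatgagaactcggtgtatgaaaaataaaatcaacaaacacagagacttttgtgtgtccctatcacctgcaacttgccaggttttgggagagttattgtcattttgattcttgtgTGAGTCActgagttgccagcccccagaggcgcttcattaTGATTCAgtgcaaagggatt
Ly6c1: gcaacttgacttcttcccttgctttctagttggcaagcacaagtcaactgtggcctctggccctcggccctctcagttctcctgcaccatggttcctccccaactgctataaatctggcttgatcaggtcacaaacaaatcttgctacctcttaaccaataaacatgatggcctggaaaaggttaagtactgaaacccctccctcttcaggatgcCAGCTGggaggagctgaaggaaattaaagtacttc
Sit1: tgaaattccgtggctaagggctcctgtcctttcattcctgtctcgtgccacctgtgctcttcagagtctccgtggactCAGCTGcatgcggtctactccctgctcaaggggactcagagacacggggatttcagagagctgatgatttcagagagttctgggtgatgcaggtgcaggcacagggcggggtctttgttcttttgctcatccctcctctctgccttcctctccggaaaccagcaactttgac

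Values are in the unit of the deposited table, rppm, which is a read count scaled to the same total in each library, and are listed in the order of the mice: 1 and 3 for A, then 1, 2 and 3 for D. At the Tnfrsf9 promoter, which encodes the costimulatory receptor 4-1BB, accessibility was 6.53 and 8.36 rppm in A and 14.6, 18.8 and 18.3 in D. All D libraries stood above both A libraries, with a log2 difference of 1.11 (SE 0.21, limma adjusted p = 0.00244) that missed the threshold without A replicate 1 (adjusted p = 0.0525). The promoter of Tnfrsf8, which encodes the related receptor CD30, stood at 2.17 and 2.11 rppm in A and 9.24, 6.98 and 6.81 in D (log2 1.45 with SE 0.19, limma adjusted p = 0.000161). The promoter of Ypel4 stood at 10.3 and 8.66 rppm in A and 29.3, 17.9 and 20.7 in D (log2 1.15), and that of Dclk1, which encodes a microtubule-associated kinase, at 1.09 and 0.604 in A and 6.16, 4.51 and 5.16 in D (log2 1.77). None of these groups overlapped. In the opposite direction, the promoter of Ly6c1, a gene for the sort marker Ly6C itself, stood at 8.05 and 7.95 rppm in A and 5.78, 2.62 and 3.61 in D (log2 -0.90 with SE 0.22, limma adjusted p = 0.0156). That call was lost without A replicate 1 (adjusted p = 0.112) or A replicate 3 (adjusted p = 0.107). The promoter of Sit1, which encodes an adaptor that dampens T cell receptor signals, stood at 27.7 and 28.7 rppm in A and 17.7, 16.3 and 19.3 in D (log2 -0.64 with SE 0.12, limma adjusted p = 0.00203).

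The authors' scaling gave denominators of 9194085 and 9933354 reads for A and of 2597176, 6875971 and 36859230 for D, so 1 read was worth 0.109 and 0.101 rppm in A and 0.385, 0.145 and 0.0271 in D. In these libraries, 92.5% to 94.7% of those reads lay in the listed peaks. Among the naive CD4 T cell markers fixed for a check of the label, Cd4, Cd3e, Cd3d, Lck, Tcf7, Lef1, Ccr7 and Il7r each had a promoter peak, whereas Ms4a1 and Pax5 of B cells, Lyz2 and Csf1r of myeloid cells and Ncr1 of NK cells had no listed peak. Other markers of those cells did have peaks. Promoter peaks of the CD8 T and NK cell genes Cd8b1, Eomes and Prf1 stood at 15.6 to 28.6 rppm in A and 13.5 to 26.6 in D, those of Ebf1 of B cells and Itgam of myeloid cells at 3.73 to 4.73 in A and 2.31 to 5.21 in D, and Cd8a, Cd79a and Spi1 had peaks away from the promoter. The part of such cells in the results was not tested. Summed over their lists, peaks of B cell genes reached 309.1 and 312.7 rppm in A and 290.1 to 340.8 in D, of myeloid and dendritic cell genes 329.2 and 366.5 in A and 272.2 to 364.9 in D, and of CD8 T and NK cell genes 932.8 and 909.6 in A and 826.9 to 896.4 in D. The list of peaks itself is not neutral: every one reached 1 rppm in at least 3 libraries, and A has only 2, so a site open in A alone would not reach that level in enough libraries.

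Of the 45508 peaks, 5658 (12.4%) had a limma adjusted p below 0.05 for the difference of D from A, and are named "called" throughout. Accessibility was higher in D at 3957 (8.7%) and lower at 1701 (3.74%). The rises began at low levels: their median was 3.2 rppm in A and 8.39 in D, with 3.99 in population B (reporter intermediate, Ly6C positive) and 4.88 in C (reporter intermediate, Ly6C negative). In 455 of them (11.5%) the mean of A was below 1 rppm. The lower peaks remained open: their median was 12.6 rppm in A and 7.09 in D, with 11.7 in B and 10.2 in C, and the mean of D was below 1 rppm in 11 (0.647%). On the log2(rppm + 1) scale, which understates the change of low peaks, 396 higher peaks but 2 lower ones changed at least 4-fold. The list could hold sites open in D alone but not sites open in A alone. Its part in this asymmetry was not tested. The share of called peaks fell with the level: among peaks averaging 2 to 5 rppm over A and D, 14.3% were higher and 4.22% lower, and among those of at least 50 rppm, 0.509% and 1.0%. The library groups were apart at all called peaks except 1, near Gabrr2, but also at 28.4% of uncalled ones. Where they were apart, leaving libraries out could not turn the direction. Without A replicate 1 the counts were 2635 higher and 480 lower, and without A replicate 3 they were 2316 and 614. In both cases the lone library of A was assumed to vary like the other groups. With the mouse as a block, which the labels allow, they were 5667 and 4001. Without mouse 3, which leaves 1 library of A and 2 of D, they were 937 and 87, and of the 289 called peaks that were picked for naming, 145 missed the threshold and 0 turned.

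**Figure D1:**
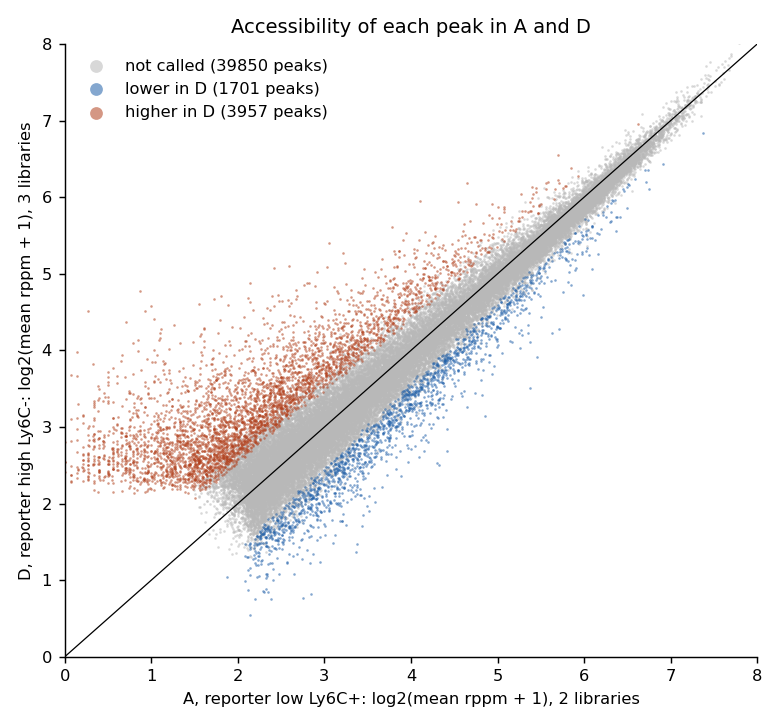
Mean accessibility of each of the 45508 peaks in population A (x axis) and population D (y axis), both as log2(mean rppm + 1), with the 3957 higher peaks and the 1701 lower peaks coloured. The higher peaks spread far from the diagonal at low levels in A, and the lower peaks keep close to it.

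Nearly all of the largest rises in either mouse with both populations were rises in the other mouse too. Among 35233 peaks averaging at least 5 rppm, the 500 with the largest rise from A to D in mouse 1 were all higher in D in mouse 3 too, with a median log2 difference of 1.98 in mouse 1 and 1.89 in mouse 3. Ranked in mouse 3 and read in mouse 1, 498 of 500 kept their direction (medians 1.94 and 1.95). Of the 500 largest decreases in mouse 1, 416 were lower in mouse 3, with medians of -1.25 and -0.35. Of those in mouse 3, 486 were lower in mouse 1, with medians of -0.83 and -0.76. The D library of mouse 1 was the shallowest and the part of depth in this difference was not tested. The average of at least 5 rppm took in both mice and 3 libraries of D against 2 of A. A site nearly closed in A therefore passed only through its D libraries, those of the mouse being read among them. The part of this filter in the agreement between the mice was not tested.

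**Figure D2:**
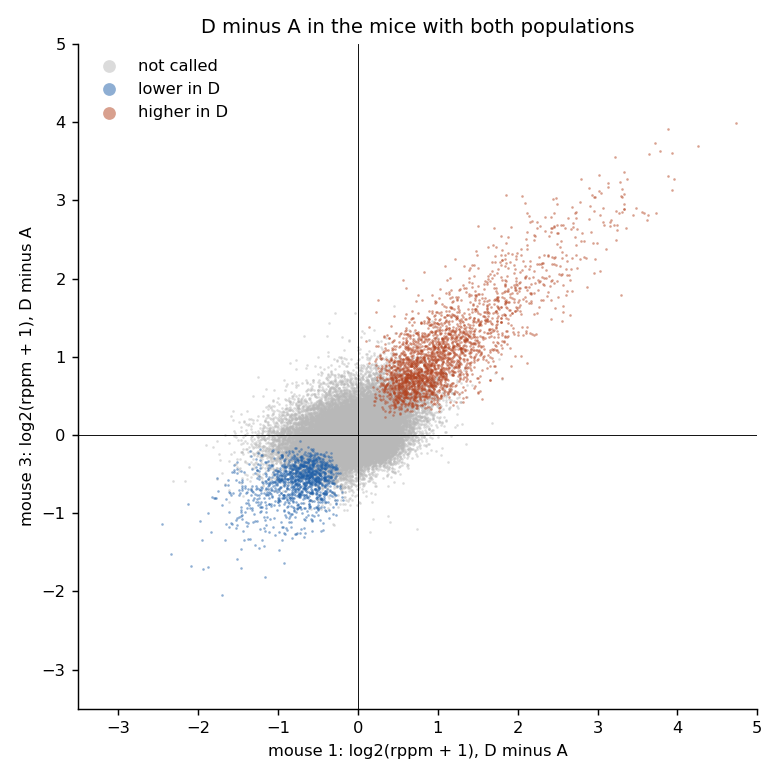
Difference D minus A in log2(rppm + 1) within mouse 1 (x axis) and within mouse 3 (y axis) for the 35233 peaks averaging at least 5 rppm, with called peaks coloured. Higher peaks follow the diagonal in both mice, and the largest decreases of mouse 1 shrink toward 0 in mouse 3 (medians -1.25 and -0.35).

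The strongest rises were at sites almost closed in A. A peak upstream of Gstt2, a glutathione transferase gene (chr10:75839131-75839550, 4.46 kb from the start), stood at 0.109 and 0.503 rppm in A and 12.3, 9.74 and 9.74 in D (log2 3.16 with SE 0.19, limma adjusted p = 4.81e-07). In intron 7 of Rad51b, a DNA repair gene (chr12:79550123-79550781), values were 0.218 and 0 rppm in A and 8.86, 8.58 and 9.03 in D (log2 3.15). A peak 14.4 kb upstream of Il1b, which encodes the inflammatory cytokine interleukin 1 beta, stood at 0.435 and 0.201 rppm in A and 13.5, 8.14 and 9.17 in D (log2 3.07). Such sites went from the level of a few reads to that of a typical peak in every D library. Decreases were smaller. In the last exon of Rab3gap1, which encodes a regulator of Rab proteins (chr1:127954030-127954604), values were 7.51 and 4.83 rppm in A and 0, 1.02 and 1.27 in D (log2 -2.08 with SE 0.31, limma adjusted p = 0.000452). A peak 22.2 kb upstream of Mocs1, a gene of molybdenum cofactor synthesis (chr17:49405832-49406508), stood at 10.2 and 8.46 rppm in A and 1.93, 0.873 and 1.93 in D (log2 -2.03). These were the 2 lower peaks that changed at least 4-fold. Smaller decreases at more open sites left them open. In the last intron of Wwox, an oxidoreductase gene (chr8:114869089-114869908), accessibility was 54.2 and 48.8 rppm in A and 21.6, 15.9 and 17.8 in D (log2 -1.44 with SE 0.13, limma adjusted p = 9.33e-06). That site lies 430 kb into the gene, and 6 other lower peaks lie between 431 and 451 kb. In intron 4 of Slc25a17, a peroxisomal transporter gene (chr15:81329698-81330652), values were 8.48 and 8.56 rppm in A and 1.93, 2.33 and 2.61 in D (log2 -1.54).

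**Figure D3:**
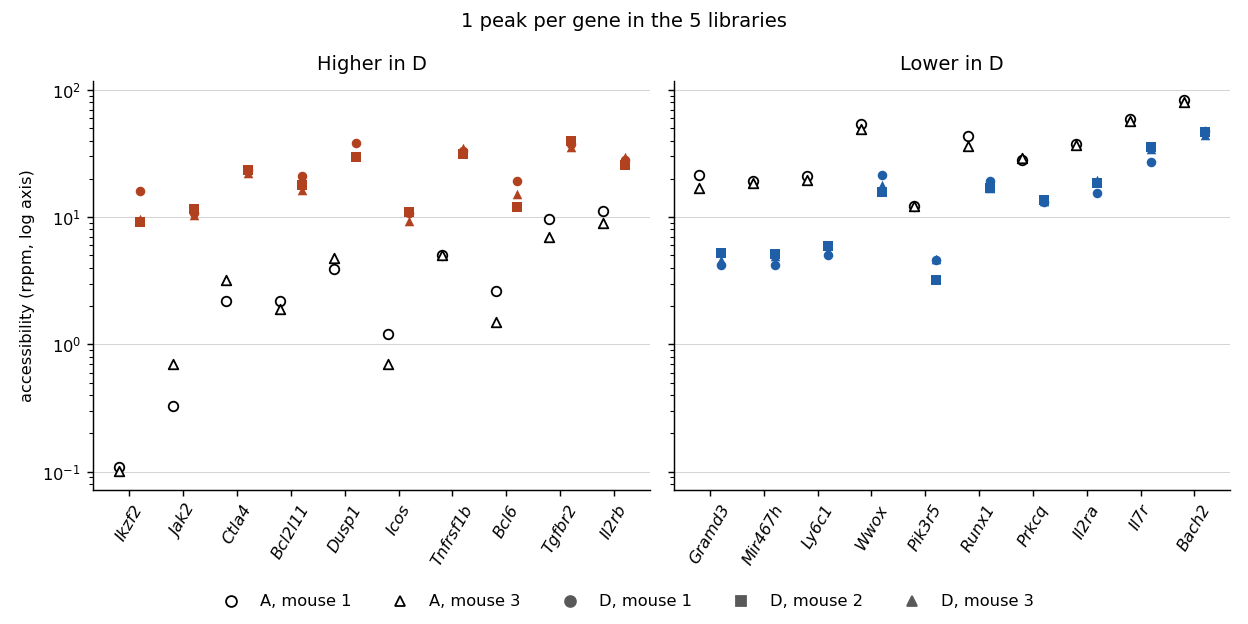
Accessibility in rppm (log axis) of selected peaks in each library of A (mice 1 and 3) and D (mice 1, 2 and 3). The D libraries lie above both A libraries at the higher peaks and below both at the lower peaks, without overlap. Only called peaks are shown, so the lack of overlap follows from the selection. The groups were apart at all called peaks except 1 and at 28.4% of uncalled ones.

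Shares of gene lists are to be read beside those of all peaks, 8.7% higher and 3.74% lower. Counts of lists in other fits are to be read beside the counts of all peaks there. Those went from 3957 higher and 1701 lower to 5667 and 4001 with the mouse as a block, and fell with either A library left out. Such a change is not in itself a trait of a list. The Nr4a genes encode orphan nuclear receptors induced by T cell receptor signals, and Nr4a1 is the gene behind the reporter. The family has 22 peaks, and 8 (36.4%) were higher and 0 lower, or 4 higher without A replicate 1. At Nr4a1, the 3 higher peaks of 8 lay upstream, between 8.26 and 12.8 kb from the start. The nearest (chr15:101258166-101259002) stood at 31.1 and 31.3 rppm in A and 71.6, 47.1 and 54.0 in D (log2 0.84 with SE 0.17, limma adjusted p = 0.00384). The peak just inside the gene, 0.321 kb from the start, was the most open of Nr4a1, at 87.7 and 88.0 rppm in A and 139, 102 and 108 in D. It was not called (log2 0.39, limma adjusted p = 0.0612), but was with the mouse as a block. Reads of the transgene would fall on the same sites wherever it carries Nr4a1 sequence, and this was not tested. At Nr4a3, a peak 32.9 kb upstream (chr4:48011887-48012870) stood at 18.5 and 17.1 rppm in A and 45.8, 33.9 and 33.0 in D (log2 1.02 with SE 0.16, limma adjusted p = 0.000586). The promoter of Nr4a2 stood at 16.8 and 18.7 rppm in A and 27.3, 32.1 and 28.3 in D (log2 0.69, limma adjusted p = 0.0036, and 0.0635 without A replicate 1). Cd5, an inhibitory coreceptor whose surface level follows the strength of self-recognition, had 3 higher peaks of 5. The one in intron 1 at chr19:10732876-10733145 stood at 1.41 and 1.51 rppm in A and 4.62, 5.38 and 6.59 in D (log2 1.40 with SE 0.18, limma adjusted p = 0.000104). Without A replicate 3, 1 of the 3 was called, and with the mouse as a block all 5 peaks were.

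Restraints on Ras and the MAP kinases, which relay the receptor signal, had 37 higher peaks of 214 (17.3%) and 4 lower (1.87%, or 8 lower with the mouse as a block). Without A replicate 3 the higher count was 22. A peak 23.5 kb upstream of Dusp1, a phosphatase that switches off MAP kinases (chr17:26531453-26532570), stood at 3.92 and 4.73 rppm in A and 38.1, 29.7 and 30.3 in D. Its log2 difference of 2.66 (SE 0.15, limma adjusted p = 3.41e-07) held in every setting tried, and the other 4 Dusp1 peaks were not called. A peak 51.8 kb upstream of Dusp4 stood at 0.218 and 0.302 rppm in A and 8.86, 7.13 and 10.3 in D (log2 2.94). Rasa1 and Rasa2, which switch Ras off, had 8 higher peaks of 16 (5 without A replicate 3) and 5 of 13 (2 without A replicate 1). Spry1, a feedback inhibitor of Ras signalling, had 2 of 4. Dusp5 and Dusp6, also feedback phosphatases of this pathway, had 0 higher peaks of 13 and of 20, although 1 at Dusp6 was higher with the mouse as a block.

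Among 99 peaks of inhibitory receptors, 20 (20.2%) were higher and 2 lower (11 lower with the mouse as a block). With either A library left out 0 were lower, with 4 without D replicate 1 and 1 without D replicate 2. Ctla4, which competes with CD28 for its ligands, had 5 higher peaks of 15 and none lower, and 9 higher with the mouse as a block. Its intron 3 (chr1:60913269-60913747) opened from 2.17 and 3.22 rppm in A to 23.5, 23.4 and 22.2 in D (log2 2.71 with SE 0.16, limma adjusted p = 4.81e-07), whereas its promoter was already open in A, at 32.3 and 30.4 rppm, and reached 51.2, 54.4 and 50.8 in D (log2 0.72 with SE 0.11, limma adjusted p = 0.000498). Pdcd1, which encodes PD-1, had 3 higher peaks of 6. The one 1.15 kb upstream (chr1:94053413-94053991) stood at 4.02 and 2.42 rppm in A and 15.4, 7.85 and 9.88 in D (log2 1.49 with SE 0.25, limma adjusted p = 0.00105). Cd200, whose product engages an inhibitory receptor on myeloid cells, had 4 higher peaks of 6. In Havcr2, the gene of TIM-3, a peak in an intron stood at 2.17 and 1.21 rppm in A and 9.24, 10.0 and 10.9 in D (log2 2.06). Tigit, Cd96 and Vsir had no called peak, of 5, 7 and 5. With the mouse as a block, Tigit had 2 higher and 1 lower, Vsir had 2 lower and Cd96 had 0.

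Costimulatory and death receptors of the TNF superfamily, with their ligands and adaptors, had 22 higher peaks of 135 (16.3%) and 3 lower, or 13 lower with the mouse as a block. The higher count was 14 without A replicate 3. Of the lower peaks, 1 was called without A replicate 1 or D replicate 2, and without D replicate 1 there were 6. Tnfrsf9 had 6 higher peaks of 7, spread from 4.73 kb upstream to 23.2 kb downstream of its start, or 4 without A replicate 1. In an intron of Tnfrsf1b, which encodes TNF receptor 2 (chr4:145221206-145222512), accessibility was 5.00 and 5.03 rppm in A and 33.1, 31.4 and 35.2 in D (log2 2.51 with SE 0.14, limma adjusted p = 3.65e-07). The promoter of Tnfrsf4, which encodes OX40, stood at 4.02 and 5.44 rppm in A and 14.2, 14.5 and 16.7 in D (log2 1.50). The other of its 2 peaks (chr4:156003824-156004752) was lower, but was not called with only A and D in the fit (limma adjusted p = 0.148). Summed over both peaks, Tnfrsf4 stood at 31.7 and 30.5 rppm in A and 32.3, 33.0 and 38.7 in D. At Tnfrsf18, the gene of GITR, 0 of 5 peaks were called, or 1, higher, with the mouse as a block.

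Genes of anergy, a state in which T cells respond poorly after signals without costimulation, had 34 higher peaks of 146 (23.3%) and 4 lower. Without A replicate 1 the lower count was 0, with 1 without A replicate 3 or D replicate 2 and 2 without D replicate 3. Nt5e encodes CD73, the enzyme that makes adenosine from AMP outside the cell, and all 7 of its peaks were higher. Its promoter (chr9:88327105-88328033) stood at 11.9 and 11.8 rppm in A and 20.0, 21.1 and 20.3 in D (log2 0.74 with SE 0.12, limma adjusted p = 0.000899). The largest difference was 52.7 kb downstream of the start, with 11.4 and 8.26 rppm in A and 37.3, 25.3 and 26.5 in D (log2 1.50). Leaving out either A library kept 5 of the 7 calls. Ndrg1, a stress-response gene linked to anergy, had 9 higher peaks of 13, 8 of them upstream up to 93.0 kb, or 6 with either A library left out. At 55.2 kb upstream (chr15:67024577-67025199), values were 0.979 and 0.805 rppm in A and 5.78, 6.25 and 7.43 in D (log2 1.98 with SE 0.18, limma adjusted p = 7.66e-06). The Ndrg1 promoter was open in both populations (26.0 and 28.3 rppm in A, 40.8, 39.8 and 37.4 in D, log2 0.52, with limma adjusted p = 0.00635, and 0.0951 without A replicate 1). The promoter peak of Izumo1r, which encodes folate receptor 4, stood at 12.0 and 14.0 rppm in A and 20.0, 23.4 and 25.1 in D (log2 0.77, limma adjusted p = 0.00345, and 0.066 without A replicate 1). Egr1, Egr2 and Egr3, receptor-induced factors of the same list, had 0, 1 and 0 higher peaks of 6, 7 and 10. Of the wider adenosine pathway, 15 of 54 peaks (27.8%) were higher, 7 of them at Nt5e, and 8 without A replicate 3. In an intron 13.1 kb upstream of Adora2a, which encodes an adenosine receptor (chr10:75303276-75304184), accessibility was 9.24 and 9.97 rppm in A and 25.0, 26.5 and 25.8 in D (log2 1.34 with SE 0.13, limma adjusted p = 1.11e-05).

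Genes known from regulatory T cells had 26 higher peaks of 89 (29.2%) and 5 lower (5.62%), although the gate removed cells with the Foxp3 reporter. The lower count was 2 without A replicate 1 and 3 without A replicate 3. Of the 26, 19 belonged to Ikzf2, Tnfrsf9 and Ctla4, and 8 of the 18 genes with peaks had no call. The single peak of Foxp3, the defining factor of these cells (chrX:7586144-7587064), overlapped between the groups, at 4.35 and 3.12 rppm in A and 3.85, 5.67 and 5.48 in D (limma adjusted p = 0.387). How far cells that escaped the gate contribute was not tested. Ikzf2, which encodes the transcription factor Helios, had 8 higher peaks of 11, from 67.0 kb upstream to 142 kb downstream of its start, or 5 without A replicate 3. One in intron 5 (chr1:69555545-69556180) stood at 0.326 and 0.705 rppm in A and 7.70, 7.27 and 6.54 in D (log2 2.44), and one 6.47 kb upstream at 1.74 and 1.61 in A and 10.8, 6.69 and 8.66 in D (log2 1.84). At Itgb8, whose product releases active TGF-beta, the promoter stood at 0.109 and 0.201 rppm in A and 8.09, 6.25 and 7.57 in D (log2 2.84 with SE 0.18, limma adjusted p = 7.76e-07). Tgfbr2, the receptor chain that binds TGF-beta, had 1 higher peak of 22, in an intron at chr9:116090981-116091906, with 9.68 and 6.95 rppm in A and 37.7, 39.6 and 35.4 in D (log2 2.06).

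Il2ra, which encodes the high-affinity chain of the interleukin 2 receptor and marks both regulatory and activated T cells, went the other way at most of its called peaks. Of 10 peaks, 3 were lower and 1 higher. The peak 6.98 kb upstream (chr2:11634975-11636654) stood at 37.4 and 36.7 rppm in A and 15.4, 18.5 and 19.6 in D (log2 -1.02 with SE 0.13, limma adjusted p = 9.89e-05), and its neighbour 5.49 kb upstream (chr2:11636993-11637610) at 16.8 and 14.6 in A and 5.78, 7.27 and 8.44 in D (log2 -1.04). In intron 1, 8.93 kb from the start, values were 4.68 and 3.93 rppm in A and 6.55, 11.3 and 11.9 in D (log2 1.01, limma adjusted p = 0.012, but 0.056 without A replicate 1 and 0.131 without A replicate 3). Il2rb, the signalling chain shared with interleukin 15, had both of its peaks higher. The promoter (chr15:78494657-78495533) stood at 11.2 and 8.96 rppm in A and 28.1, 25.7 and 29.8 in D (log2 1.39 with SE 0.13, limma adjusted p = 1.03e-05). Il7r, the receptor of the survival cytokine interleukin 7, had 8 lower peaks of 19 and none higher. The one 51.1 kb upstream (chr15:9580047-9581879) stood at 59.4 and 57.3 rppm in A and 27.0, 35.3 and 34.2 in D (log2 -0.85 with SE 0.17, limma adjusted p = 0.00326). Without A replicate 1, 1 of the 8 Il7r peaks was called, without A replicate 3 or D replicate 3 there were 5, and the promoter peak was not called. Over all cytokine receptors, 23 of 226 peaks were higher (10.2%) and 20 lower (8.85%), against 8.7% and 3.74% of all peaks. The higher count was 15 without A replicate 1, and the lower count was 4 and 9 without A replicates 1 and 3 and 31 with the mouse as a block. Jak2, a kinase that signals from several of these receptors, had 6 higher peaks of 9. Its intron at chr19:29271038-29271587 stood at 0.326 and 0.705 rppm in A and 10.8, 11.5 and 10.3 in D (log2 2.98 with SE 0.19, limma adjusted p = 6.84e-07).

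Genes of follicular helper T cells, which help B cells in germinal centres, had 28 higher peaks of 134 (20.9%) and 2 lower (7 lower with the mouse as a block). Leaving out either A library brought the lower count to 0, and leaving out D replicate 1 or 3 to 1. The promoter of Cxcr5, the receptor that guides cells into follicles (chr9:44526178-44527297), stood at 5.11 and 5.64 rppm in A and 20.0, 23.4 and 29.8 in D (log2 1.98 with SE 0.22, limma adjusted p = 4.12e-05). A peak 8.6 kb upstream of Bcl6, the lineage's repressor, stood at 2.61 and 1.51 rppm in A and 19.3, 12.1 and 15.1 in D (log2 2.43). Pou2af1, a coactivator, had 4 higher peaks of 5 (2 without A replicate 3), and Maf, a factor that drives Il21, had 4 of 13. Il21r had 2 lower peaks of 17 and none higher, of which 1 was called with any single D library left out and 0 with either A library left out.

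Other helper lineage genes are spread over several fates. Of 193 peaks of lineage factors, 40 (20.7%) were higher, or 25 without A replicate 3. The lower count was 5, with 2 and 3 without A replicates 1 and 3 and 12 with the mouse as a block. Gfi1, a repressor that supports type 2 helper cells, had 6 higher peaks of 11, or 3 without A replicate 3. The one 5.9 kb upstream (chr5:107731258-107732148) stood at 5.77 and 6.34 rppm in A and 33.9, 27.3 and 24.1 in D (log2 2.05 with SE 0.20, limma adjusted p = 1.09e-05). Gata3, the type 2 factor, had 5 higher peaks of 25, or 3 without A replicate 1 or D replicate 2 and 2 without A replicate 3. Hif1a, the hypoxia factor, had 5 of 7, or 2 with either A library left out. Tbx21, the type 1 factor, had 0 called peaks of 3. Tox, a factor of the thymic CD4 lineage, had 8 higher peaks of 28 and 0 lower, or 1 lower without D replicate 2 or 3.

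Cytokine genes had 14 higher peaks of 57 (24.6%). The only lower one, at Lif, was lost with either A library left out, the lower count was 2 without D replicate 1, and it was 3 with the mouse as a block. At Ifng, the type 1 cytokine interferon gamma, all 4 higher peaks lay together, 17.9 to 28.1 kb downstream of the start, and all 4 were called without any single library of A or D. The central one (chr10:118460050-118460769) stood at 1.09 and 1.31 rppm in A and 13.5, 11.6 and 11.9 in D (log2 2.60 with SE 0.16, limma adjusted p = 4.81e-07). A peak 27.1 kb upstream of Il21 stood at 0.979 and 1.01 rppm in A and 7.32, 6.83 and 7.43 in D (log2 2.04). Il2, Il4 and Tnf had no called peak.

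At Pik3r5, 9 of 11 peaks were lower and 0 higher. The gene encodes a regulatory subunit of PI3 kinase gamma, which acts downstream of chemokine receptors. In intron 1, 21.1 kb from the start (chr11:68452639-68453838), accessibility was 55.7 and 57.6 rppm in A and 26.6, 25.9 and 31.7 in D (log2 -0.99 with SE 0.13, limma adjusted p = 0.00017). At 4.39 kb (chr11:68436384-68436643) it was 12.2 in both A libraries and 4.62, 3.20 and 4.72 in D (log2 -1.36). The promoter peak was far more open, at 91.3 and 92.5 rppm in A and 77.4, 80.1 and 78.2 in D, and was not called (limma adjusted p = 0.145). With either A library left out, 6 of the 9 were called.

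The Ly6 cluster had 12 lower peaks of 42 (28.6%) and none higher, but 1 without A replicate 1 and 2 without A replicate 3. The Ly6c1 peak 14.9 kb downstream (chr15:75033381-75034218), at 21.0 and 19.6 rppm in A and 5.01, 5.96 and 5.40 in D (log2 -1.72 with SE 0.14, limma adjusted p = 2.79e-06), was called in all of these. Ly6C was a gate of the sort. Ly6c2, also a gene for Ly6C, had 0 called peaks of 5. Its summed accessibility was 72.3 and 72.0 rppm in A and 84.7, 63.3 and 71.6 in D. Its most open peak was called with the mouse as a block on A and D alone (limma adjusted p = 0.0437). Interferon-response genes had 6 lower peaks of 102 (5.88%) and none higher, against 3.74% lower and 8.7% higher of all peaks. The lower count was 3 and 2 without A replicates 1 and 3 and 14 with the mouse as a block, and 1 peak was higher without D replicate 3 or with the block.

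Several regulators of naive T cells held called peaks in both directions, which genes with many peaks can do at the shares of all peaks, 8.7% and 3.74%. The list of naive state and quiescence factors, which holds Bach2, had 62 higher peaks of 615 (10.1%) and 33 lower (5.37%). With the mouse as a block the counts of this list were 81 and 66. Runx1, a factor of T cell development, had 5 higher and 2 lower of 34. A site 191 kb upstream (chr16:93016873-93017708) stood at 6.96 and 6.04 rppm in A and 25.4, 21.5 and 24.3 in D (log2 1.72 with SE 0.13, limma adjusted p = 2.24e-06), and one in an intron (chr16:92640922-92641550) at 43.4 and 36.3 in A and 19.3, 16.9 and 17.0 in D (log2 -1.12). Bach2, a repressor of effector programs, had 6 higher and 5 lower of 54. The lower count was 1 and 2 without A replicates 1 and 3 and 3 without D replicate 3, and 9 with the mouse as a block. Its lower peak 126 kb upstream (chr4:32290833-32292063) stood at 83.9 and 79.7 rppm in A and 47.4, 46.8 and 44.1 in D (log2 -0.81 with SE 0.10, limma adjusted p = 0.000101). Prkcq, which encodes protein kinase C theta of the receptor pathway, had 3 higher and 4 lower of 38. The counts were 1 and 1 without A replicate 1 and 1 and 3 without A replicate 3, and the higher count was 2 and 1 without D replicates 2 and 3 and 5 with the block. Its lower peak at chr2:11205687-11206199 stood at 28.3 and 29.3 rppm in A and 13.1, 13.5 and 13.5 in D (log2 -1.05). At Myc, the growth regulator, the promoter (chr15:61984769-61985822) was lower, at 56.3 and 55.3 rppm in A and 37.0, 38.4 and 38.8 in D (log2 -0.54 with SE 0.10, limma adjusted p = 0.00169), and a small peak 3.71 kb upstream was higher, at 3.15 and 2.01 in A and 8.47, 8.58 and 7.73 in D (log2 1.39).

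Bcl2l11, which encodes the death-inducing protein BIM, had 8 higher peaks and 1 lower of 19. All but 1 of the higher peaks lay upstream, between 8.24 and 65.0 kb from the start. At 33.7 kb (chr2:128092021-128092560) accessibility was 2.17 and 1.91 rppm in A and 21.2, 17.7 and 16.4 in D (log2 2.67 with SE 0.21, limma adjusted p = 2.79e-06), and at 8.24 kb it was 2.17 and 2.11 in A and 9.63, 12.4 and 12.1 in D (log2 1.97). The lower peak, 32.4 kb downstream, was lost without A replicate 3 (limma adjusted p = 0.103). Pmaip1, which encodes the related protein NOXA, had 3 higher peaks of 3 (1 with either A library left out, 2 without D replicate 3), and Bcl2, the survival factor, had 0 called of 12. Over all 178 peaks of survival and death genes, 23 (12.9%) were higher and 7 (3.93%) lower, against 8.7% and 3.74% of all peaks. The higher count was 15 and 14 without A replicates 1 and 3. The lower count was 2 and 0 without them, 4 without D replicate 2 and 20 with the mouse as a block.

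**Figure D4:**
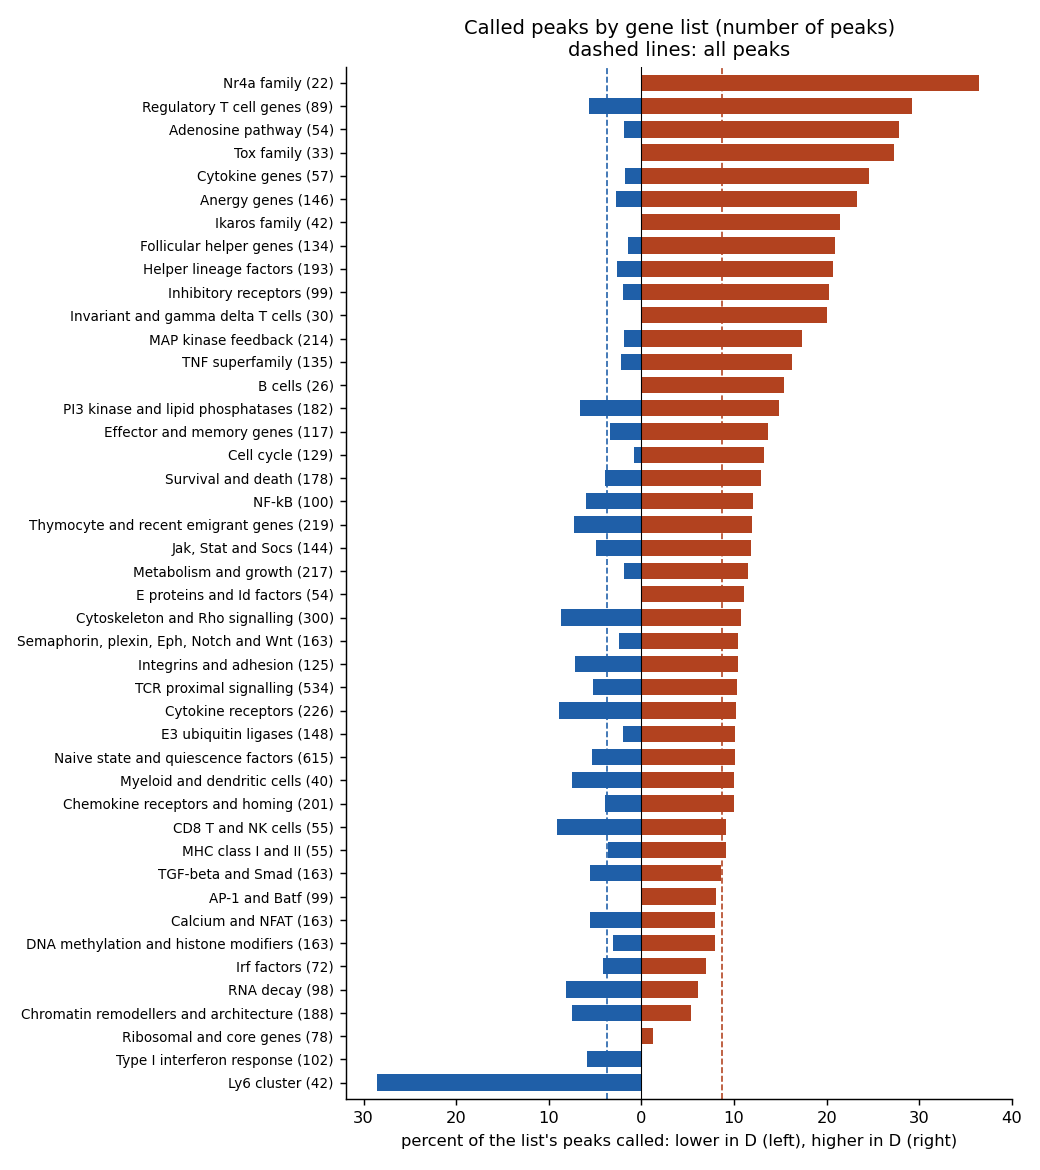
Percent of the peaks of each gene list that were higher (right) or lower (left) in D than in A, with the shares of all peaks, 8.7% and 3.74%, as lines. The Nr4a family (36.4%) and the regulatory T cell genes (29.2%) have the largest higher shares, and the Ly6 cluster (28.6%) the largest lower share.

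Some gene lists had a share of higher peaks near or below the 8.7% of all peaks. That background is not matched to any list for level or distance. Members and lists were chosen with earlier results of these data known. Of 99 peaks of AP-1 factor genes, 8 were higher (8.08%) and 0 lower, with a median log2 difference of -0.02 against -0.04 over all peaks. The higher count was 3 and 5 without A replicates 1 and 3 and 13 with the mouse as a block, and the lower count was 1 without A replicate 3 or D replicate 1 and 6 with the block. Of the 8, 4 were at Jdp2 (2 without A replicate 1), a factor that dimerises with Jun proteins and has 6 peaks. Calcium and NFAT genes had 13 higher peaks of 163 (7.98%) and 9 lower (5.52%). The counts were 7 and 2 without A replicate 1, 5 and 2 without A replicate 3, and 24 and 19 with the block. Ribosomal and other core genes had 1 higher peak of 78 (1.28%) and 0 lower, or 2 and 5 with the block. Chromatin remodellers had 14 lower peaks of 188 (7.45%) and 10 higher (5.32%), and no direction prevailed in all fits. Of these 14, 8 were at Chd7 (5 and 4 without A replicates 1 and 3) and 4 at Arid1b (1 with either left out), and the list had 6 lower and 9 higher without A replicate 1, 6 and 8 without A replicate 3, 7 and 8 with only A and D in the fit, and 24 and 13 with the block.

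MicroRNAs are short RNAs that repress messages matching their seed. Of 1365 peaks nearest to microRNA genes, 159 (11.6%) were higher and 76 (5.57%) lower, against 8.7% and 3.74% of all peaks. These shares are not matched for distance to a start site. Mir21a, a microRNA induced in activated T cells, and the Mir181a-1 cluster, which sets the sensitivity of the T cell receptor in thymocytes, were picked for description after their values were seen. Their mature sequences are given with the seed, bases 2 to 8, in capitals, and the Mir181 pair shares 1 seed. From RefSeq (GRCm38.p6), they lie at chr11:86584120-86584141 (-) for miR-21a, chr1:137966468-137966490 (+) for miR-181a and chr1:137966650-137966673 (+) for miR-181b.
mmu-miR-21a-5p: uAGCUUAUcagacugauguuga
mmu-miR-181a-5p: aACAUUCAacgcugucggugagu
mmu-miR-181b-5p: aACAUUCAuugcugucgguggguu

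Of 13 peaks assigned to Mir21a, 5 were higher, all upstream and in introns of the neighbouring gene, and 0 lower (1 without D replicate 3). Leaving out any 1 library of A or D kept at least 5 higher calls. At 7.34 kb upstream (chr11:86591301-86591692) accessibility was 1.09 and 1.01 rppm in A and 9.63, 10.8 and 12.9 in D (log2 2.55 with SE 0.18, limma adjusted p = 1.72e-06). At 9.05 kb (chr11:86593045-86593379) it was 0.544 and 0.906 in A and 12.3, 8.14 and 8.95 in D (log2 2.64). Of 10 peaks assigned to Mir181a-1, 6 were higher, between 48.9 and 309 kb upstream, and 3 without A replicate 1. The nearest (chr1:137917153-137917916) stood at 1.85 and 1.31 rppm in A and 8.09, 9.16 and 8.84 in D (log2 1.92 with SE 0.20, limma adjusted p = 2.19e-05). No mature miRNA was measured. Mir155, another microRNA of activated T cells, had 0 called peaks of 1, and Mir142 0 of 6.

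Called peaks that lie close together mostly moved together. Of 607 pairs of neighbouring called peaks within 5 kb, 558 (91.9%) had the same direction, 375 pairs higher and 183 lower, and within 50 kb 1903 of 2280 (83.5%) did. Such neighbours may share 1 regulatory element and are not independent. Of all called peaks 69.9% were higher, so many pairs would share a direction without being neighbours. Over genes, 498 had at least 3 called peaks, of which 246 had only higher ones, 75 only lower ones and 177 both. Among the genes with many higher peaks were Foxp1 (10 of 83, with 2 lower, or 6 and 0 without A replicate 3), which encodes a factor of T cell quiescence, and Tank (10 of 19), a regulator of NF-kB and interferon signalling, for which all 10 lay upstream. The share at Foxp1 is near that of all peaks. The microRNA gene Mir6368 had 9 of 20. With the mouse as a block, the higher counts were 13 at Foxp1, 13 at Tank and 17 at Mir6368. Long genes and genes with wide surroundings collect more peaks. A pair within Arid1b, a subunit of BAF remodellers, went opposite ways 3089 bases apart. The first (chr17:5089349-5090080) stood at 29.3 and 23.2 rppm in A and 15.8, 17.9 and 17.5 in D (log2 -0.58, limma adjusted p = 0.00585), and the second (chr17:5093169-5093814) at 8.81 and 10.9 in A and 19.3, 15.4 and 18.2 in D (log2 0.78, limma adjusted p = 0.00215). Both calls were lost without A replicate 1 (limma adjusted p = 0.136 and 0.0527).

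The share of higher peaks grew with the distance to the nearest start site, and that of lower peaks did so unless the mouse was a block. Within 1 kb, 2.74% of 12206 peaks were higher and 0.901% lower, between 10 and 20 kb 10.0% and 4.43%, and beyond 100 kb 17.2% and 5.8%. With the mouse as a block, the shares were 4.37% higher and 8.04% lower within 1 kb, 14.6% and 8.95% between 10 and 20 kb, and 22.7% and 9.13% beyond 100 kb, so lower calls outnumbered higher ones at promoters. The median distance was 23.1 kb for higher, 20.5 kb for lower and 8.06 kb for uncalled peaks. Of 262 promoter peaks of genes with at least 3 higher peaks beyond 1 kb, 37 (14.1%) were higher and 0 lower, and of 106 promoter peaks of genes with at least 3 such lower peaks, 11 (10.4%) were lower and 3 higher. The median log2 difference of these promoter peaks was 0.01 and -0.15, against -0.07 over all promoter peaks. By chromosome, the higher share ran from 4.46% on X to 13.2% on 13.

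**Figure D5:**
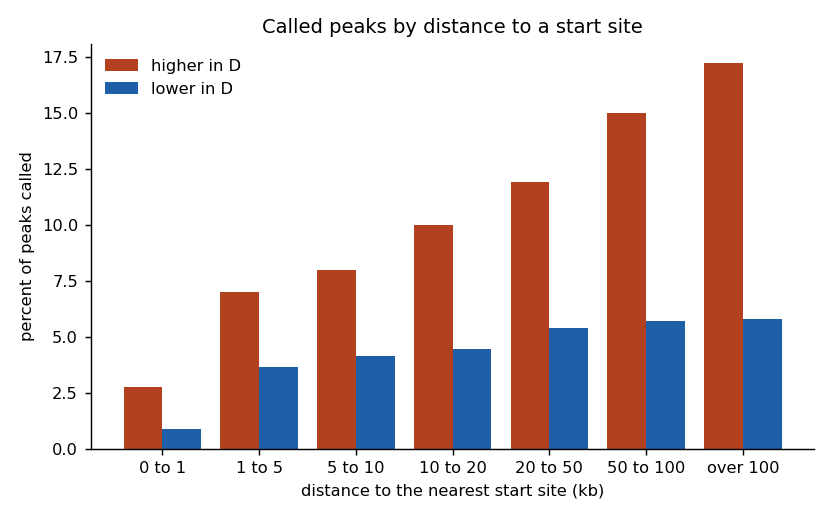
Percent of peaks higher (red) and lower (blue) in D than in A by distance to the nearest start site in kb. In this fit, without the mouse as a block, the shares go from 2.74% and 0.901% within 1 kb to 17.2% and 5.8% beyond 100 kb.

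Some promoters that changed were nearly closed in A. The first intron peak of Prr5l, a partner of the kinase complex mTORC2 (chr2:101796422-101797943, 0.525 kb from the start), stood at 0.435 and 0.705 rppm in A and 11.6, 14.8 and 14.4 in D (log2 3.21 with SE 0.19, limma adjusted p = 4.81e-07). At Sh3gl3, an endophilin gene (chr7:82174544-82175532), it was 0.435 and 0.503 in A and 8.47, 8.87 and 9.77 in D (log2 2.77), and at Kcnq3, a potassium channel gene (chr15:66286462-66287233), 1.74 and 2.82 in A and 15.0, 15.1 and 14.8 in D (log2 2.30). Lower promoters kept more of their accessibility. At Atp6v0d2, a proton pump subunit gene (chr4:19923197-19923669), accessibility was 15.8 and 14.6 rppm in A and 6.16, 7.13 and 6.92 in D (log2 -1.07 with SE 0.14, limma adjusted p = 0.000143), and at Slc22a4, a transporter gene (chr11:54027887-54029032), 7.83 and 8.56 in A and 3.85, 3.35 and 3.77 in D (log2 -0.98).

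RefSeq promoter windows of 300 bases overlapped 205 higher, 53 lower and 8380 uncalled promoter peaks. The median ratio of observed to expected CpG was 0.61 in higher, 0.65 in lower and 0.79 in uncalled windows, and 38.0%, 35.8% and 13.7% of them lay below 0.5. Median GC content was 60.7% in higher, 60.3% in lower and 62.0% in uncalled windows. The AP-1 letters TGANTCA, which read the same on both strands, were in 24 of the 205 higher windows (11.7%), 3 of the 53 lower (5.66%) and 4.13% of the uncalled, against 7.81% of all 32817 RefSeq promoters. In the 150 bases before the start the shares were 4.88%, 5.66%, 2.06% and 4.24%, so higher windows did not exceed lower ones there. Among windows with a CpG ratio below 0.5 the shares were 19.2% of 78 higher, 10.5% of 19 lower and 8.54% of 1147 uncalled, against 10.6% of all. The E-box CAGCTG, also the same on both strands, was in 30.2% of lower windows (16 of 53), 19.5% of higher, 13.9% of uncalled and 16.3% of all, and in the 150 bases before the start in 22.6%, 7.32%, 6.66% and 8.39%. The letters GGAAGT of Ets factors, searched on both strands, were in 13.7% of higher, 24.5% of lower, 29.7% of uncalled and 23.8% of all windows (in the 150 bases 7.32% of higher, 17.0% of lower, 1507 of the 8380 uncalled and 13.6% of all). AAGGTCA, the letters of Nr4a receptors, on both strands, were in 4.39%, 1.89%, 2.57% and 4.72% (2.44%, 0%, 1.09% and 2.31% in the 150 bases). The motifs described here were part of a longer list that was searched, and others differed between the classes too. GTGGGNG of EGR factors, on both strands, was in 42.4% of higher, 32.1% of lower, 39.3% of uncalled and 31.6% of all windows. Below a CpG ratio of 0.5 it was in 55.1%, 21.1%, 36.4% and 26.3%. CAGGTG of ZEB factors was in 28.3% of lower, 22.0% of higher, 17.4% of uncalled and 20.2% of all windows. These are matches of letters, given without a test, and they show no binding.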

How the data were processed

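ATAC-seq was measured in 11 libraries, and the deposited table gives 1 value in RPM for each peak and library, called rppm per the file headers. Bowtie, MACS2 and the mm10 build are named per the submitters' processing notes. Read filters, peak merging and the denominator are not given in the sources used here. Every value was a whole multiple of 1 read (100.0% within 0.001 rppm), so whole reads were recovered. Intervals on reads would cover counting error only.

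Peaks were tested with limma (3.58.1, under R 4.3.3). The model gave log2(rppm + 1) a mean for each population over all 11 libraries, with a variance trend and no filter, and p-values were two-sided, with Benjamini-Hochberg adjustment over 45508 peaks at 0.05. Alternatives were other pseudocounts, a minimum of 5 rppm, other scalings, fewer libraries, the mouse as a block, thinning, and edgeR 4.0.16 and DESeq2 1.42.0 on recovered reads. The labels give the mouse of each library. Deviations from the population means correlated at 0.18 to 0.56 (median 0.36) in 15 pairs from 1 mouse. In 30 pairs from different mice the range was -0.43 to 0.2. Deviations sum to 0 within a population, which lowers the values between mice, and the 2 libraries of A mirror each other. The pairs are therefore not independent. Mouse 3 also had the deepest library of each population, and the part of depth was not tested.

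Peaks carry the nearest gene assigned by the authors, which need not be the gene a site regulates, and peaks near 1 gene are not independent. The largest changes and the largest at promoters were named from called peaks without overlap between groups. These averaged 5 rppm or more in whichever population was higher. Called peaks with high accessibility were named by the same rule. Called peaks of each of 44 gene lists were added without a filter on level or overlap. Uncalled peaks, such as those of Lef1, Cd3e and Foxp3, were named as well. Members and lists were chosen with earlier results of these data known, and loci described peak by peak, printed promoters and microRNAs after their values were seen. Genes can stand in several lists. No genome was used, so motifs were read in RefSeq promoter windows overlapping a promoter peak by at least 150 bases (8638 of 12206, 70.8%). The windows with few CpG and the distance shares with the block were added after seeing the data. Scripts were tested on simulated data.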

Additional observations from a re-analysis of the deposited data

How the results depend on the processing

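Of 289 called peaks that were named, 142 kept call and direction in every setting run and 0 turned. In each setting 0 peaks were called in the opposite direction. Leaving libraries out could not turn a peak whose A and D libraries were apart, which held at all called peaks except 1. Across single libraries left out, the count of called peaks ran from 2930 to 6042, of higher from 2316 to 4075, of lower from 480 to 1967, and the share within 1 kb of a start from 6.45% to 8.59% (7.85% as reported). Without mouse 3 the counts were 1024, 937 higher and 87 lower (4.88%). Without mouse 2 the lower count was 837 (share 6.85%), and without mouse 1 the share was 9.37%. With all libraries thinned to the shallowest, 2743 were called, 2157 higher and 586 lower (6.56%).

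With the mouse as a replicate block 9668 were called, 5667 higher and 4001 lower (15.7%), keeping 3955 of 3957 higher and 1701 of 1701 lower calls, and with the block on A and D alone the counts were 6723, 4374 and 2349 and the share 13.2%. With A and D alone and no block, 3763 were called, 765 lower (6.75%). A minimum of 5 rppm gave 3534, 2373 and 1161. Of called peaks, 19.0% lay within 5 kb of a start and 4.61% carried a promoter annotation. Quantile normalization gave 61.0% of calls higher in place of 69.9%, and edgeR and DESeq2 called 6425 and 5219. The median difference of all peaks was between -0.05 and 0 in every setting.

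Among uncalled peaks, that of Lef1 (log2 -0.05) was at 0.0 with quantile normalization or without mouse 3, 0.04 with the replicate block, 0.09 with the block on A and D alone, without D replicate 2 or without mouse 2, and 0.02 without D replicate 3, with a range over single libraries left out of -0.26 to 0.09. That of Cd3e (-0.10) was at 0.04 without D replicate 1 and 0.06 without mouse 1, and ran from -0.23 to 0.04 over single libraries left out. That of Foxp3 (0.34) was at -0.16 when thinned. The causes were not tested. Motif shares in windows on the peaks themselves and on distal peaks were not run. A has 2 libraries, and D replicate 1 the fewest reads, so small changes at low peaks were the least measurable.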
